A study of Mus musculus with 8 samples.

Results

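The 10 genes described here were chosen because their proteins build the perinuclear theca of the sperm head or belong to the actin-like proteins of male germ cells. They were taken by gene symbol and make up 10 of the 19906 protein-coding genes in the table. They were the actin-like genes Actl7a, Actl7b and Actl9, the actin-related testis genes Actrt1, Actrt2 and Actrt3, the cylicin genes Cylc1 and Cylc2, the capping protein gene Capza3 and the calicin gene Ccin. RNA was measured by paired-end sequencing of whole testes from 4 Tmem232-/- and 4 Tmem232+/+ mice, all 2 months old, to find transcripts that differ after loss of Tmem232, a gene for a transmembrane protein of the testis. The knockout allele was made in C57BL/6 zygotes with Cas9 and a pair of guides placed in introns, which removed a stretch of the gene with several exons. Total counts lay between 15428421 and 16350871 per library, and every one of the 10 genes had whole counts in all 8 libraries.

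The targeted gene did not check the labels. Tmem232 stood at 148, 132, 123 and 122 CPM (counts scaled to the size of the library) in replicates 1 to 4 of the libraries that carry the Tmem232-/- label (KO-labelled) and at 111, 106, 108 and 110 CPM in those that carry the Tmem232+/+ label (WT-labelled). The KO-labelled libraries were higher, with a log2 fold change of 0.27 (SE 0.07, adjusted p = 0.0335 in edgeR's quasi-likelihood test, between 0.0027 and 0.114 under the alternatives). The table gives a single value per gene, in which the removed exons cannot be seen apart from the rest. All directions given here are therefore those of the libraries as labelled, and values are listed in the order of the replicate numbers.

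The perinuclear theca is a rigid cytoskeletal shell that encloses the sperm nucleus. Its front layer lies between the nuclear envelope and the acrosome, the secretory vesicle that the sperm opens at fertilization, and its rear layer lies under the plasma membrane behind the acrosome. The shell is assembled in spermatids, the haploid cells that reshape into sperm, from basic proteins such as the cylicins, from calicin and from proteins that share the actin fold. Testis-specific actin-like proteins and a testis-specific capping protein subunit occupy the same region, and loss of several of them is known to detach the acrosome or deform the sperm head.

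The genes were spread over 5 chromosomes (GRCm38.p6). Actl7b (chr4:56740005-56741425, minus strand) and Actl7a (chr4:56743422-56744925, plus strand) are neighbours that point away from each other, with 1996 bases between their starts. Ccin (chr4:43983504-43985533, plus), Cylc2 (chr4:51216670-51250625, plus) and Actrt2 (chr4:154666428-154667867, minus) lie on the same chromosome. That put 5 of the 10 genes on chromosome 4, which held 6.05% of the genes in the table. Because the genes were picked by family, no enrichment was tested. Actl9 lies at chr17:33432899-33434268 (plus), Actrt3 at chr3:30594844-30599870 (minus) and Capza3 at chr6:140041525-140042789 (plus). Actrt1 (chrX:46329007-46330345, plus) and Cylc1 (chrX:111110418-111125961, plus) are X-linked, on a chromosome that held 4.63% of the genes in the table. In the GENCODE vM21 models 7 of the 10 genes consist of 1 exon, and Actrt3, Cylc2 and Cylc1 have 2, 5 and 6 exons. Coding lengths run from 897 bases (Capza3) to 1926 bases (Cylc1).

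Promoter sequence from RefSeq (GRCm38.p6, 250 bases before to 50 after the start) was matched for 8 of the 10 genes, all but Cylc2 and Capza3. The letters TGACGTCA, the cyclic AMP response element to which the germ-cell factor CREM is known to bind, occurred only in the promoter of Ccin among these 8, and in 1.79% of all 32851 promoters. The looser letters TGANGTCA, searched on both strands (TGACNTCA on the other) and including the former, occurred in 5 of the 8, namely Ccin, Actl7a, Actl7b, Actl9 and Cylc1, and in 8.83% of all promoters. The looser form was chosen after the promoters had been read. A match describes the letters and not a bound site. The 100 bases before the start are shown 5′ to 3′ for these 5 genes, because they share the letters, and for Actrt3, because it changed most and has no match. Capitals mark TGANGTCA on either strand where the whole match lies within the 100 bases shown. A second match in Actl9, TGACCTCA, begins 104 bases before the start, so it is cut off and left in lower case.
Ccin (chr4:43983404-43983503, plus): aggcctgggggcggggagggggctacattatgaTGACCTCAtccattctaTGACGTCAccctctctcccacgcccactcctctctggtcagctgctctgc
Actl7a (chr4:56743322-56743421, plus): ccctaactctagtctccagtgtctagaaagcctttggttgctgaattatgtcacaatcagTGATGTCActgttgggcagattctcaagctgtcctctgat
Actl7b (chr4:56741426-56741525, minus): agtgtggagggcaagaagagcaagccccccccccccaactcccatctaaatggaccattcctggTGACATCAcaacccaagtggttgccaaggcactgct
Actl9 (chr17:33432799-33432898, plus): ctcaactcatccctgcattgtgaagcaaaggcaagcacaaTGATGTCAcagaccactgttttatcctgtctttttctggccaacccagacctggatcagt
Cylc1 (chrX:111110318-111110417, plus): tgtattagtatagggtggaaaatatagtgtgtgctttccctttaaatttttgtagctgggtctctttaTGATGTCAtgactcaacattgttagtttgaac
Actrt3 (chr3:30599871-30599970, minus): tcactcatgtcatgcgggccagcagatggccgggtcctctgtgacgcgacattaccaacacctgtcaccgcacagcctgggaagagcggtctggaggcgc

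The capitals begin 50 bases before the start for the full element of Ccin, 40 for Actl7a, 36 for Actl7b, 60 for Actl9 and 32 for Cylc1. The genes with these letters covered nearly the whole range of responses described next, from Actl7b, the smallest, to Ccin, second only to Actrt3. Of the other motifs searched on both strands, GTTGCCA was found in the promoters of Actl7b and Actrt1 (4.38% of all promoters) and TATAAA in that of Actl9 alone (13.6% of all promoters).

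All 10 genes were higher in KO-labelled libraries and passed an adjusted p of 0.05 in edgeR's quasi-likelihood test, which was fitted over 15787 genes. Over all genes tested, 10.3% were called higher and 1.46% lower at this threshold. The median log2 fold change of the 10 genes was 1.33, from 0.63 for Actl7b to 3.79 for Actrt3, beside a median of -0.05 over all genes tested. When a fold of at least 2 was required together with an unadjusted p below 0.05, 8 of the 10 were called (5.48% of all genes tested), and Actl7b and Actl9 were not. In each of the 10 genes, every KO-labelled library lay above every WT-labelled library, which held for 11.8% of all genes tested. In whole testis, fewer cells of a type and less RNA per cell cannot be told apart.

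**Figure D1:**
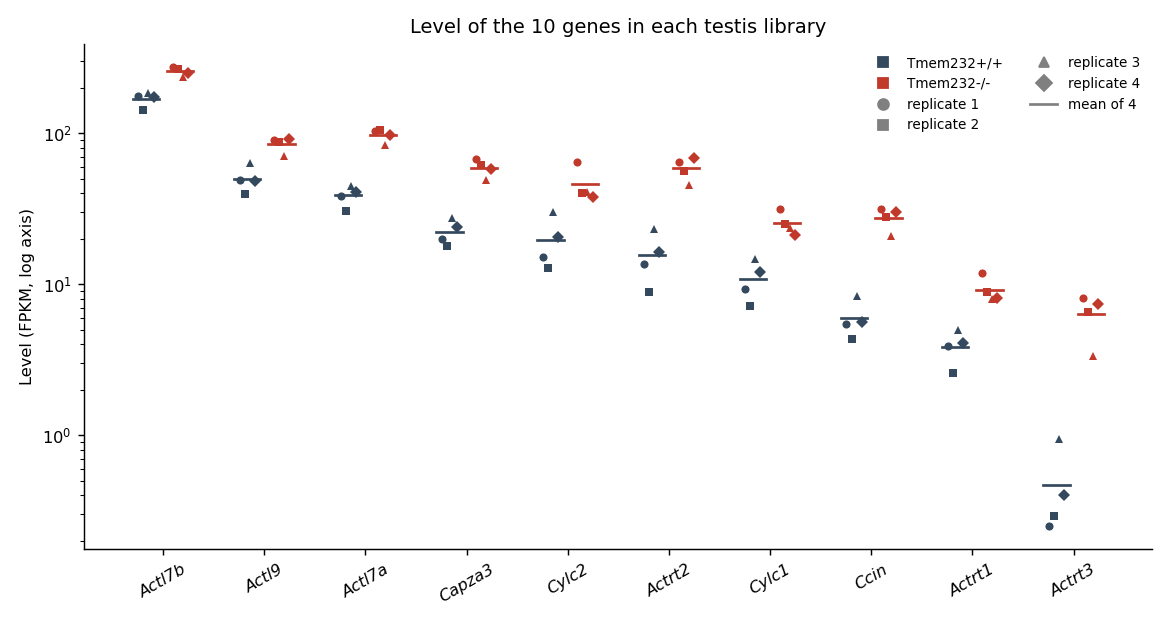
Level of the 10 genes in each library in FPKM (fragments scaled to transcript length and library size, log axis), ordered by the mean of WT-labelled libraries, where points are libraries and bars are means of 4. Red lies above dark blue for each gene, from Actl7b (257 against 170 FPKM) to Actrt3 (6.35 against 0.47 FPKM).

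Compared per length, the order of the genes in WT-labelled libraries ran from Actl7b (170 ± 19.1 FPKM, SD, n = 4) through Actl9 (49.9 ± 9.67), Actl7a (38.7 ± 6.12), Capza3 (22.3 ± 4.27), Cylc2 (19.7 ± 7.64), Actrt2 (15.5 ± 6.01), Cylc1 (10.8 ± 3.27), Ccin (5.93 ± 1.70) and Actrt1 (3.86 ± 0.98) down to Actrt3 (0.47 ± 0.32). Neighbours from Capza3 to Cylc1 in this order differed by less than the larger of their standard deviations. In KO-labelled libraries the same genes ran from Actl7b (257 ± 18.0 FPKM) to Actrt3 (6.35 ± 2.09). Actl7a (97.2 ± 9.73) there stood above Actl9 (84.9 ± 9.44), and Actrt2 (58.5 ± 10.04) was level with Capza3 (58.9 ± 7.59).

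Actl7a and Actl7b encode divergent members of the actin family, and Actl7a protein is known to hold the acrosome to the nucleus. Actl7a was at 143, 141, 113 and 128 CPM in KO-labelled libraries and at 52.5, 39.3, 58.6 and 53.6 CPM in WT-labelled libraries. The lowest of the former was 1.93 times the highest of the latter. The log2 fold change was 1.36 (SE 0.12, adjusted p = 3.24e-05), and 2.83% of the tested genes had a larger one.

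Actl7b was the most abundant of the 10 genes and changed least. It was at 354, 337, 297 and 310 CPM in KO-labelled libraries and at 224, 172, 227 and 215 CPM in the others, where replicate 2 was the lowest. The groups were separated by a factor of 1.31, and the log2 fold change was 0.63 (SE 0.10, adjusted p = 0.000931). An annotated gene on the opposite strand, Gm26657, covers 90.9% of the Actl7b transcript. Whether the counting used strand is not given in the sources used here, so reads from these overlapping genes cannot be told apart in the Actl7b value.

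Actl9, whose protein is a partner of Actl7a in the theca, was at 111, 105, 86.3 and 108 CPM in KO-labelled libraries. In WT-labelled libraries it was at 59.5, 46.1, 73.8 and 56.6 CPM. Here the groups came closest of all 10 genes, with replicate 3 of the former only 1.17 times replicate 3 of the latter. The log2 fold change was 0.80 (SE 0.13, adjusted p = 0.00144).

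Actrt1, Actrt2 and Actrt3 encode the actin-related proteins T1 to T3 of the spermatid. Actrt1 was scarce, at 14.3, 10.4, 9.49 and 9.41 CPM in KO-labelled libraries and 4.61, 2.91, 5.64 and 4.67 CPM in the others. Replicate 1 was the highest of the former and replicate 2 the lowest of the latter. Its log2 fold change was 1.29 (SE 0.20, adjusted p = 0.00106).

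Actrt2 was at 84.3, 71.9, 58.6 and 85.5 CPM in KO-labelled libraries against 17.6, 11.0, 28.9 and 20.3 CPM in WT-labelled libraries. The lowest of the former was 2.03 times the highest of the latter. The log2 fold change was 1.95 (SE 0.23, adjusted p = 0.000161), exceeded by 1.19% of the tested genes.

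Actrt3 had the largest difference of the 10. Its counts were 216, 181, 93 and 204 in KO-labelled libraries and 7, 8, 25 and 11 in WT-labelled libraries, or 14.4, 11.4, 5.88 and 12.5 CPM against 0.44, 0.48, 1.58 and 0.68 CPM. Replicate 3 was the lowest of the former and the highest of the latter, and these still differed 3.71-fold. The log2 fold change was 3.79 (SE 0.38, adjusted p = 5.95e-05), and only 0.19% of the tested genes had a larger one. The few counts in WT-labelled libraries limit the precision of this value, which lay between 3.61 and 4.38 when a library was left out, the latter without WT-labelled replicate 3.

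The cylicins are basic, lysine-rich proteins that are known to line the acrosomal and postacrosomal parts of the theca. Cylc1 was at 61.4, 48.1, 44.2 and 40.02 CPM in KO-labelled libraries and at 18.0, 13.2, 27.2 and 22.4 CPM in the others. The groups did not overlap, and the log2 fold change was 1.26 (SE 0.20, adjusted p = 0.00111).

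Cylc2 was at 203, 122, 125 and 114 CPM in KO-labelled libraries and at 47.3, 38.4, 89.7 and 62.0 CPM in WT-labelled libraries. Replicate 1 of the former stood far above its 3 neighbours, and replicate 3 of the latter was the highest of its group. The log2 fold change was 1.25 (SE 0.25, adjusted p = 0.00623), the largest adjusted p of the 10 genes. With each library left out in turn it stayed between 1.02 and 1.55.

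Calicin, the product of Ccin, is a BTB-kelch protein of the theca. Ccin was at 60.4, 52.9, 39.7 and 54.8 CPM in KO-labelled libraries. It was at 10.3, 7.81, 15.1 and 10.3 CPM in WT-labelled libraries. The groups were separated by a factor of 2.62. Its log2 fold change was 2.26 (SE 0.19, adjusted p = 2.42e-05, the smallest of the 10), exceeded by 0.855% of the tested genes.

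Capza3 encodes the testis-specific alpha subunit of the protein that caps the growing ends of actin filaments. It was at 75.5, 67.9, 54.1 and 63.1 CPM in KO-labelled libraries and at 22.1, 18.9, 29.3 and 25.9 CPM in the others. The groups were separated by a factor of 1.85, and the log2 fold change was 1.44 (SE 0.14, adjusted p = 4.78e-05). In GENCODE the gene body of Capza3 overlaps that of Plcz1 on the opposite strand, but the 1-exon transcript of Capza3 shares no exon base with Plcz1.

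**Figure D2:**
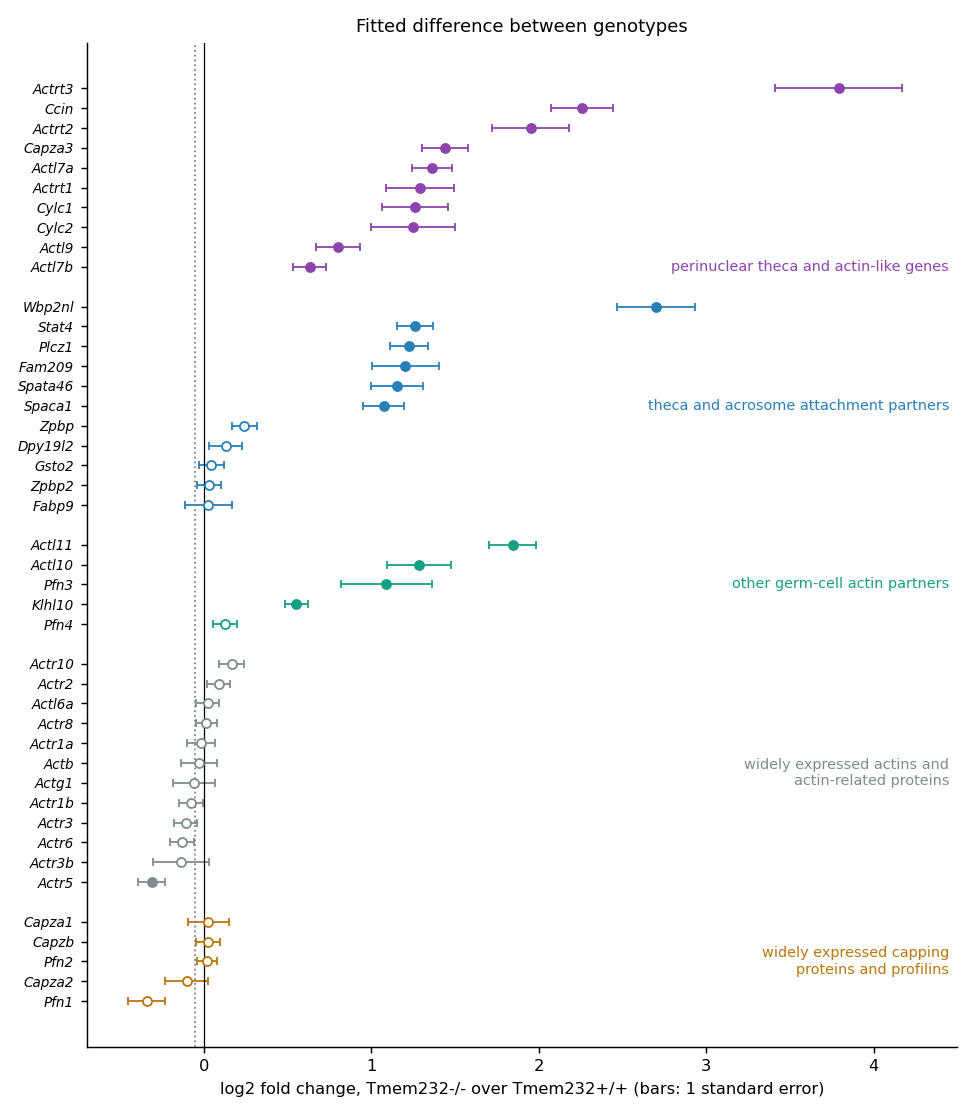
Fitted log2 fold change of KO-labelled libraries over WT-labelled libraries for the 10 genes and 4 lists of related genes, with bars of 1 standard error, filled points for an adjusted p under 0.05 and a dotted line at the median of all tested genes (-0.05). The 10 genes lie between 0.63 and 3.79, and the widely expressed actins and capping proteins lie near 0.

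Ratios of related genes within a library need no scaling between libraries. For 9 pairs the log2 ratio of counts was compared between genotypes by a two-sided exact permutation test over 70 arrangements, whose smallest p is 0.0286, or 0.0367 after adjustment over the 9 pairs. Of the 9 pairs, 7 reached that value, so the members of these pairs changed by different amounts. Their coding sequences are 61.5% to 71.0% identical over aligned bases.

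The neighbours Actl7a and Actl7b did not move by the same amount. The log2 ratio of Actl7a to Actl7b was -1.31, -1.26, -1.39 and -1.28 in KO-labelled libraries and -2.09, -2.13, -1.95 and -2.00 in the others. It was 0.73 higher in the former (exact permutation, adjusted p = 0.0367). Actl7a also gained on Actl9, from a mean log2 ratio of -0.21 to 0.35, with the same adjusted p in the exact test. Actl7b against Actl9 overlapped between groups, with mean log2 ratios of 1.66 and 1.84 (difference -0.18, exact permutation, adjusted p = 0.129).

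Among the 3 Actrt genes each pair shifted. The log2 ratio of Actrt1 to Actrt3 was -0.01, -0.12, 0.69 and -0.41 in KO-labelled libraries, against 3.31, 2.51, 1.81 and 2.73 in the others. Actrt1 counts were thus 6.03 times those of Actrt3 in WT-labelled libraries and 1.02 times in the others. The ratio of Actrt2 to Actrt3 fell by 1.85 on the log2 scale and that of Actrt1 to Actrt2 fell by 0.71, each with an adjusted p of 0.0367 in the exact permutation test.

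Cylc1 and Cylc2, by contrast, kept nearly 1 ratio. Its log2 value was -1.73, -1.34, -1.49 and -1.51 in KO-labelled libraries and -1.39, -1.54, -1.72 and -1.47 in the others, so the ranges overlapped. The difference was 0.01 (exact permutation p = 0.914) and lay between -0.05 and 0.08 when a library was left out.

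Capza3 gained on both of its widely expressed relatives. Its mean log2 ratio to Capza1 was -2.92 in KO-labelled libraries and -4.33 in the others, and that to Capza2 was 0.38 and -1.15. The differences were 1.41 and 1.53, and both reached the smallest adjusted p of the exact permutation test, 0.0367. Capza3 counts therefore passed those of Capza2 in KO-labelled libraries alone, at 1.30 times against 0.45 times.

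**Figure D3:**
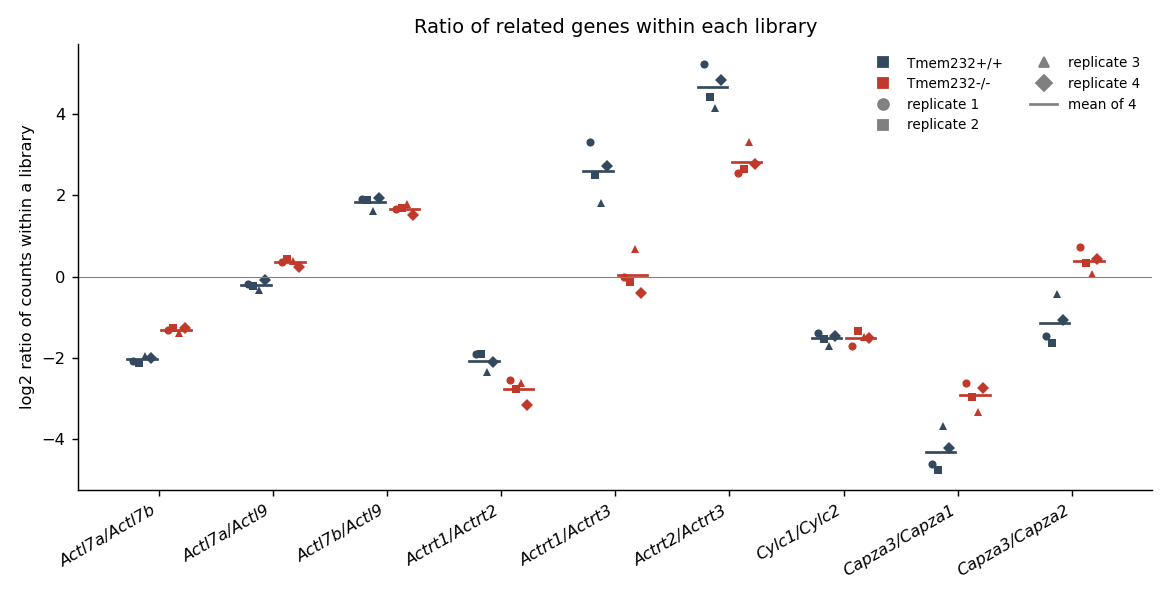
Log2 ratio of counts of 9 pairs of related genes in each library, where points are libraries and bars are means of 4. The genotypes separate in 7 pairs and overlap for Actl7b/Actl9 (means 1.66 and 1.84) and Cylc1/Cylc2 (means -1.52 and -1.53).

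Other genes of the same structures were read from lists. Of 11 partners in the theca and in acrosome attachment, 6 were called higher in KO-labelled libraries and none lower, with a median log2 fold change of 1.07. Wbp2nl, a postacrosomal theca protein also called PAWP, was at 13.4 ± 3.73 against 2.06 ± 0.45 CPM (SD, n = 4 each), a log2 fold change of 2.70 (SE 0.23, adjusted p = 3.02e-05 in edgeR). Stat4 (log2 fold change 1.26), Plcz1, the phospholipase that starts the calcium waves of the egg (1.23), and Fam209 (1.20) were the next largest. The 5 partners that were not called were Zpbp (0.24), Dpy19l2 (0.13), Gsto2 (0.045), Zpbp2 (0.03) and Fabp9 (0.03). Fabp9 was the most abundant of the list, at 797 ± 112 against 783 ± 165 CPM. Of these 5, Zpbp was called under at least 1 alternative. Of 5 other actin-linked genes of germ cells, Actl11 (log2 fold change 1.84), Actl10 (1.28), Pfn3, a testis profilin (1.09), and Klhl10 (0.55) were called higher. Pfn4 was at 0.13 with an adjusted p of 0.291 in edgeR, and the call of Pfn3 was lost under some alternatives, up to an adjusted p of 0.0669.

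None of the widely expressed members of the same families was called higher. Of 12 tested actins and actin-related proteins 1 was called lower, with a median log2 fold change of -0.05. The lower gene, Actr5, was at 20.3 ± 1.72 against 25.2 ± 0.68 CPM (log2 fold change -0.31, edgeR adjusted p = 0.0284, up to 0.135 under the alternatives). Of 5 widely expressed capping proteins and profilins none was called, with a median of 0.02. Pfn1, the largest difference of the list, was at 100.4 ± 9.999 against 127 ± 19.6 CPM with no overlap between groups (log2 fold change -0.34, edgeR adjusted p = 0.0703). The most abundant of these, Capza1 and Pfn2, had log2 fold changes of 0.03 and 0.02.

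The listed markers of spermatids moved with the 10 genes, but the lists were chosen with earlier results of these data known. Not every gene of the same structures moved, since 5 of the 11 theca and attachment partners above were not called. All 9 round spermatid markers were called higher in KO-labelled libraries, with a median log2 fold change of 1.17. Their summed level was 540 to 703 CPM against 208 to 339 CPM. All 12 elongating spermatid markers were called higher, of which Prm3 lost its call under some alternatives, with a median of 2.18 and sums of 1361 to 2263 CPM against 344 to 698 CPM. Among the latter, Prm1 was at 95.9 ± 39.8 against 4.55 ± 2.43 CPM and Prm2 at 140 ± 55.0 against 6.44 ± 4.30 CPM. In both groups these protamines, which package sperm DNA, stood below Smcp, the most abundant of the 12 (331 ± 63.5 against 128 ± 49.1 CPM). Whether the level of either group is usual for a testis was not tested. The part of these marker shifts in the levels of the 10 genes was not tested.

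Few markers of other testis cells were called. None of 9 spermatocyte markers was called higher and 1 was called lower, and none of 10 spermatogonium markers was called higher and 3 were called lower. Of 6 peritubular myoid markers 1 was called higher, Actg2 at 47.8 ± 5.25 against 20.8 ± 5.71 CPM, and 2 were called lower. Of these 6 lower calls only that of the spermatogonium marker Uchl1 held under all alternatives, while Stra8, Sall4, Dmc1, Acta2 and Myh11 lost theirs under some. No marker of Sertoli cells (7), Leydig cells (6), macrophages (6), endothelial cells (6), red blood cells (5) or epididymis (2 tested) was called, but under at least 1 alternative 4 Leydig markers (Star, Cyp11a1, Cyp17a1 and Lhcgr), the red blood cell markers Hba-a1 and Hba-a2, the Sertoli markers Sox9 and Clu and the endothelial marker Pecam1 were, as was the spermatogonium marker Zbtb16. The median log2 fold change was 0.47 for the Leydig markers, with sums of 398 to 566 CPM in KO-labelled libraries against 252 to 433 CPM. The red blood cell markers had a median of -0.63, with 5 of 5 below 0 and sums of 150 to 596 CPM against 305 to 595 CPM. Spermatocyte markers had a median of -0.11 (9 of 9 below 0), spermatogonium markers -0.30 (8 of 10) and peritubular myoid markers -0.345 (5 of 6). Summed spermatogonium markers were at 273 to 299 CPM in KO-labelled libraries against 318 to 351 CPM. The medians were -0.13 for Sertoli cells, 0.09 for macrophages, -0.04 for endothelial cells and -1.40 for the 2 epididymis markers. Of these 2, Crisp1 was at 27.0, 0, 9.94 and 0 CPM in WT-labelled libraries, with a log2 fold change of -2.54. That value lay between -4.85 and -1.03 when a library was left out, and Rnase10 was at -0.25. The part of these shifts in the levels of the 10 genes was not tested either.

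**Figure D4:**
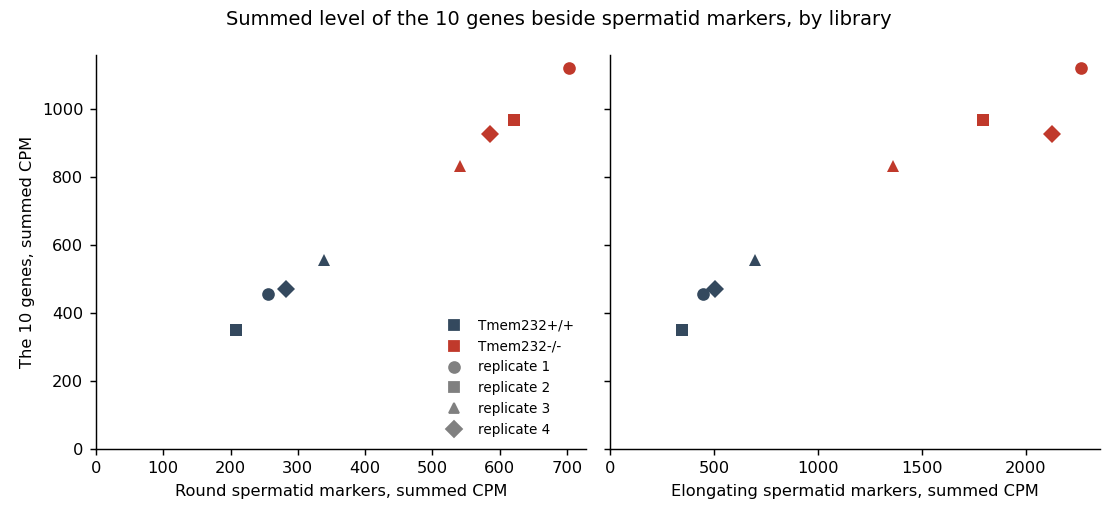
Summed CPM of the 10 genes against the summed CPM of 9 round spermatid markers (left) and 12 elongating spermatid markers (right), with each point a library. The libraries labelled Tmem232-/- lie at 832 to 1121 CPM for the 10 genes and WT-labelled libraries at 350 to 557 CPM, and within each genotype the same libraries are highest and lowest on both axes.

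The same libraries were extreme for most of the 10 genes. WT-labelled replicate 3 was the highest of its group in 10 of the 10 genes and replicate 2 the lowest in 9. KO-labelled replicate 1 was the highest of its group in 9 genes and replicate 3 the lowest in 7. The summed round and elongating spermatid markers had the same highest and lowest libraries in both groups. In the chi-square comparison of libraries of the same group, WT-labelled replicate 3 stood apart, at 14.6 to 23.3 per degree of freedom against 3.80 to 6.57 among the other 3. The KO-labelled libraries also split, with replicates 1 and 4 (8.29 to each other) at 11.7 to 13.8 against replicates 2 and 3 (3.62 to each other). With WT-labelled replicate 3 left out, all 10 genes were still called higher, and their median log2 fold change was 1.51. With each KO-labelled library left out in turn, all 10 were called higher and the median lay between 1.23 and 1.39.

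The 10 genes were then set against spermatid markers of the same library, as the log2 level of a gene minus the mean log2 level of the markers, with 0.5 added to each CPM value. These 20 comparisons were chosen after the values were seen and were tested by exact permutation, with p-values adjusted over the 20. The smallest p of this exact test is 0.0286, here 0.0381 after adjustment. Differences of unlike size that reach it are therefore not ranked by it. Against round spermatid markers, Actrt3 was still higher in KO-labelled libraries (difference 1.99), as were Ccin (1.04), Actrt2 (0.81) and Capza3 (0.25), each with an adjusted p of 0.0381 in the exact test. Actl7b (-0.55) and Actl9 (-0.37) were lower relative to these markers, with the same adjusted p in the exact permutation test. The added 0.5 is about as large as Actrt3 itself in WT-labelled libraries and shrinks its difference, which was 2.66 with 0.5 added to counts instead (exact permutation, adjusted p = 0.0381). Actl7a (0.18), Cylc1 (0.09), Cylc2 (0.09) and Actrt1 (0.03) had exact adjusted p-values of 0.0714, 0.444, 0.632 and 0.743.

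Against the mean of the elongating spermatid markers only Actrt3 was higher in KO-labelled libraries (difference 0.65, or 1.26 with 0.5 added to counts, exact permutation, adjusted p = 0.0381 for both). Ccin was at -0.30 (exact adjusted p = 0.101). The other 8 genes were lower relative to the mean of these markers, from -0.54 for Actrt2 to -1.89 for Actl7b, each with an exact permutation adjusted p of 0.0381. This comparison is with the mean of 12 markers that rose by unequal amounts, with log2 fold changes from 1.28 (Prm3) to 4.44 (Prm2). Prm1, Prm2, Tnp2 (3.86), Tnp1 (3.54), Spem1 (2.90) and Tssk6 (2.69) lie in the upper part of that range. The other 6, Prm3, Odf1 (1.33), Smcp (1.38), Gapdhs (1.49), Oaz3 (1.61) and Akap4 (1.67), had log2 fold changes like those of Actrt1 (1.29), Actl7a (1.36) and Capza3 (1.44). Of the 8 genes, Actl7b (0.63), Actl9 (0.80), Cylc2 (1.25) and Cylc1 (1.26) had log2 fold changes below that of each of the 12 markers, the cylicins by less than their standard errors. Actrt1, Actl7a, Capza3 and Actrt2 (1.95) lay within the range of the markers. Differences from single markers were not tested.

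**Figure D5:**
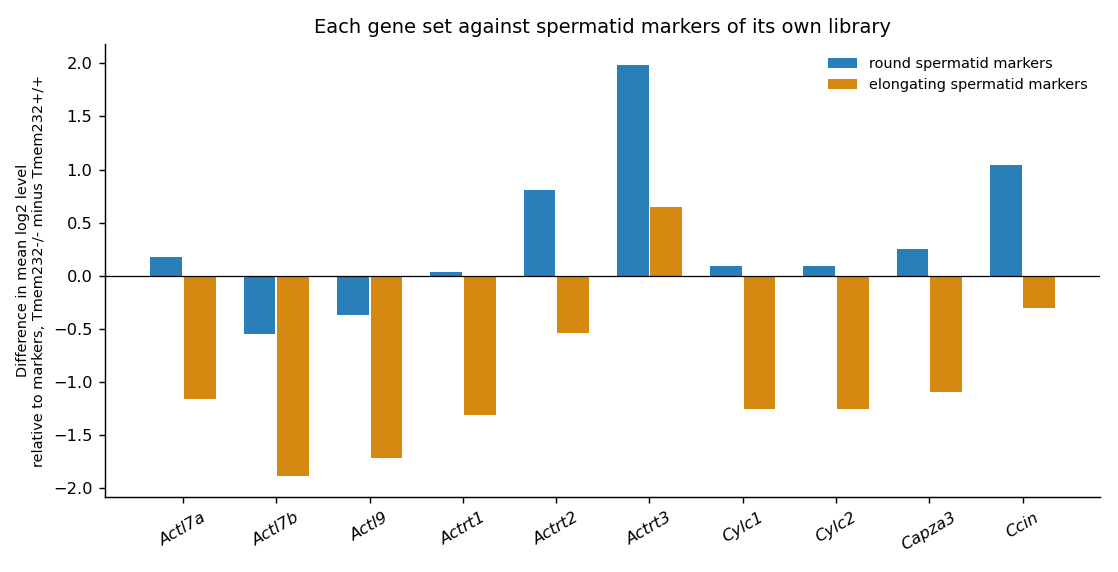
Difference between KO-labelled and WT-labelled libraries in the mean log2 level of each gene relative to the mean log2 level of round (blue) or elongating (orange) spermatid markers of the same library. The levels are log2(CPM + 0.5), which compresses the low Actrt3, above 0 on both (1.99 and 0.65), and Actl7b (-0.55 and -1.89) and Actl9 (-0.37 and -1.71) are below 0 on both.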

How the data were processed

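Total RNA from whole testes was sequenced from TruSeq RNA libraries, 1 library per mouse. Per the labels and the study's methods, reads were mapped to GRCm38.p6 with HISAT and Bowtie2 and counted with StringTie and featureCounts (versions not given in the sources used here). The authors deposited estimated counts without scaling, of which 10.7% to 11.2% per library are fractional. The authors also deposited FPKM values, a unit recognised from the numbers themselves. Further columns hold the authors' group averages, fold changes and DESeq2 p- and q-values, and were not used. Counts were rounded and fitted with edgeR 4.0.16 in R 4.3.3 (filterByExpr, TMM scaling, quasi-likelihood test, Benjamini-Hochberg adjustment over all tested genes), which was checked on simulated data. CPM values are TMM-scaled, ± is SD and n = 4. Ratios of related genes used 0.5 added to counts, levels relative to markers 0.5 added to CPM, and both two-sided exact permutation tests. Alternatives used DESeq2 1.42.0, limma 3.58.1, other scalings and filters, the FPKM values and each library left out. From the 4 lists of related genes, genes past the threshold were named, at most the 4 with the largest change, or the 2 most abundant where none passed. The uncalled theca and attachment partners, Pfn4 and Pfn1 were named besides, and the rule was not applied to the marker lists. The 10 genes and all lists were chosen with earlier results of these data known.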

Additional observations from a re-analysis of the deposited data

Results flagged for a closer look

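Cylc2 in replicate 1 labelled Tmem232-/- (KO-labelled) was at 203 CPM, far from the 114 to 125 CPM of the other 3 libraries of that group. The gap made up 0.886 of the group's range, above Dixon's 95% critical value for 4 samples. The log2 ratio of Actl7b to Actl9 in replicate 3 labelled Tmem232+/+ was 1.62, against 1.90 to 1.92 in the other 3, with a gap of 0.912 of the range. In all, 40 groups of 4 were examined, of which about 2 would stand out by chance.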

How the results depend on the processing

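The 10 genes were called higher, with the same direction, in all 179 combinations of gene and alternative that could be fitted, with log2 fold changes of 0.55 to 4.38 and adjusted p-values up to 0.0243 (Cylc2). With at least 10 counts required in every library, Actrt3 dropped out and could not be fitted. Its log2 fold change was 2.29 on the log2(FPKM + 1) scale, which compresses low levels. Leaving out each library moved the median log2 fold change between 1.19 and 1.51. Equal replicate numbers gave no sign of pairing, since the correlations of their deviations were -0.11, 0.12, -0.41 and -0.13. Unequal numbers gave -0.38 to 0.46, the highest for KO-labelled replicate 1 with WT-labelled replicate 3. With the replicate number as a block, 10 genes were called higher and the median log2 fold change was 1.33. The difference in the ratio of Cylc1 to Cylc2, which was not called, changed sign to -0.004 with FPKM values in place of counts, and the cause was not tested. Tmem232 was no longer past the threshold with the block (adjusted p = 0.114) and in 4 of the 8 fits without a library. An exact permutation test of ratios with 3 libraries against 4 cannot go below p = 0.0571, so the ratios without a library are values with no test. Depth limits Actrt3 most, at 7 to 25 counts in the libraries labelled Tmem232+/+. Set against the markers with 0.5 added to counts in place of CPM, a choice made after the data were seen, the 20 differences kept their direction and their side of the threshold.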
